A study of Mus musculus with 9 samples.

Results

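The transcripts of 8 chemokine and chemoattractant receptors, Cx3cr1, Ccr1, Ccr2, Cxcr4, Ccrl2, Cmklr1, Fpr1 and Fpr2, were measured in microglia sorted from mouse brain. They were taken by name from 23238 gene symbols, by a rule that uses no expression value, but with earlier results of these data known. Of the 8 receptors, 7 passed the filter on low counts, as did 12292 genes in all, and Fpr1 did not pass and was not tested. Microglia were sorted by their surface CD45, CD11b and P2ry12, and 9 RNA libraries were made in 3 groups of 3. The mice of every group were wild type (WT), and the study's methods describe female C57BL/6N mice of 12 weeks. Normal mice received no treatment. NMO mice received NMO-IgG, the antibody against aquaporin-4 from patients with neuromyelitis optica, together with human complement in the striatum of 1 side. NMO+Clodronate mice were given liposomes loaded with clodronate, which kill phagocytes such as blood monocytes, into the peritoneum before the same injection. Brains were taken on day 1, and each library came from a pool of 3 mice, so the spread between libraries is a spread between pools. No libraries of control IgG or of empty liposomes were analysed here. Antibody, complement and injection therefore cannot be told apart, nor can clodronate and its carrier.

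Chemokine receptors are membrane proteins with a helix bundle that couples to inhibitory G proteins, and a gradient of ligand turns that coupling into directed movement. Cx3cr1 binds fractalkine, which neurons display, and is a hallmark of resting microglia, whereas Ccr2 draws monocytes out of the bone marrow and into inflamed tissue. Ccr1 binds inflammatory CC chemokines, Cxcr4 binds Cxcl12, Cmklr1 signals in response to chemerin, Ccrl2 binds chemerin without signalling, and the formyl peptide receptors Fpr1 and Fpr2 sense bacterial and mitochondrial peptides.

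The libraries held 5788234 to 7837219 counts, and levels are given as CPM, read counts relative to library sizes after TMM scaling, a normalisation for composition. All 10 microglia markers had counts in every library, but their summed level ran from 24026 to 27234 CPM in Normal, from 19665 to 21862 CPM in NMO and from 13133 to 17759 CPM in NMO+Clodronate. The transcript of P2ry12, the marker used for the sort, was lower in NMO+Clodronate than in NMO, with a log2 fold change of -2.22 (adjusted p = 1.73e-05, edgeR quasi-likelihood test). Summed monocyte markers were at 33.0 to 52.9 CPM in Normal, 56.4 to 119 CPM in NMO and 73.3 to 112 CPM in NMO+Clodronate, and of the 10, at most 2 were at 0 in a library. In the same order of groups, summed neutrophil markers spanned 98.3 to 551, 150 to 462 and 295 to 1333 CPM. Border macrophage markers spanned 308 to 481, 215 to 365 and 438 to 691 CPM, and lymphocyte markers 15.8 to 20.7, 9.13 to 21.6 and 10.5 to 16.8 CPM. The highest means in each group were those of S100a8 and S100a9 (neutrophil) and of Stab1 and Cbr2 (border macrophage). The sums therefore weigh these genes most. In NMO+Clodronate against Normal, 4 of 7 border macrophage markers tested had a log2 fold change above 0, and 1 was called higher. Mrc1 (15.7 and 14.3 CPM in Normal and NMO+Clodronate), Lyve1 (8.03 and 6.14 CPM) and Pf4 (4.84 and 2.36 CPM) had a lower mean in NMO+Clodronate. NMO replicate 2 stood apart, with 12 genes at 0 counts that were at 20 CPM or more in each of the other 8 libraries. None of the 8 receptors was among them, but the border macrophage marker Cbr2 was, and without that library the summed border macrophage markers in NMO were at 360.5 and 365 CPM. Without that library, Cx3cr1 stayed called in NMO+Clodronate against Normal (log2 fold change -0.54, adjusted p = 0.0308, edgeR), and no other receptor was called in any comparison. In bulk libraries, fewer cells of a type and less RNA per cell cannot be told apart.

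**Figure D1:**
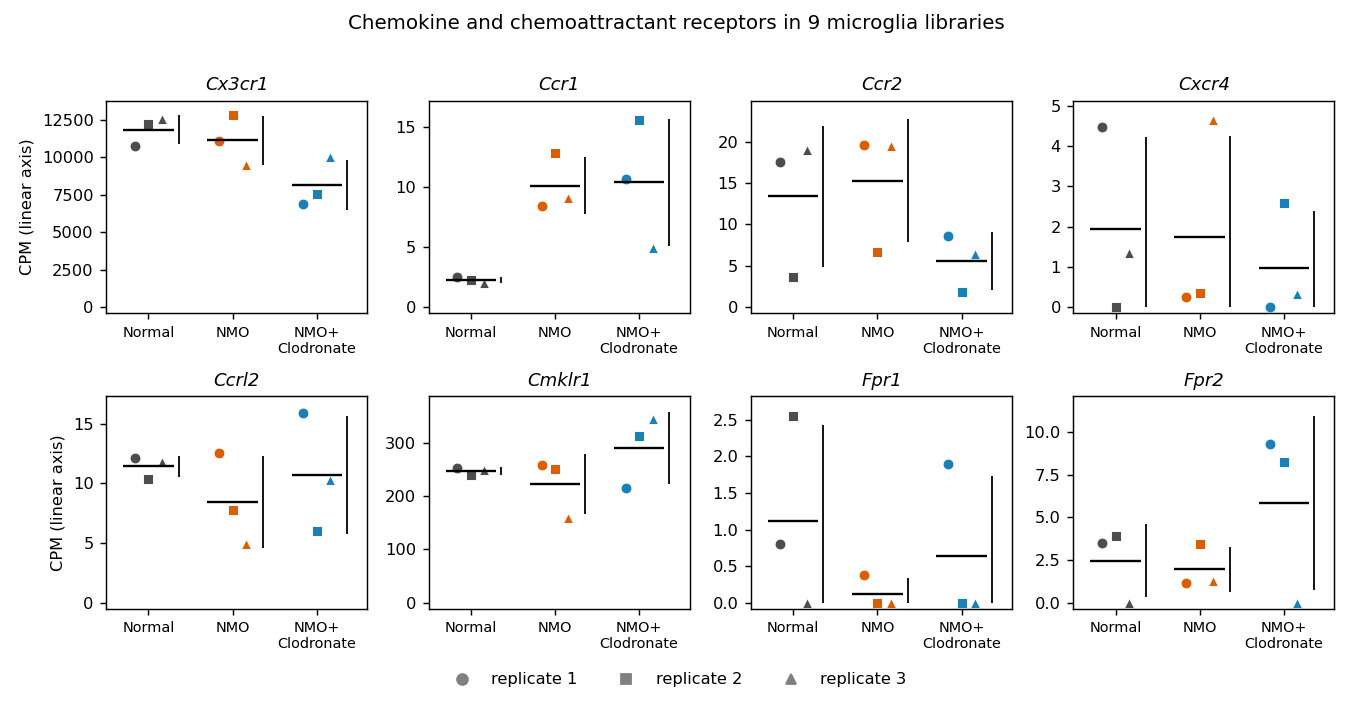
Levels of the 8 receptors in CPM on linear axes that start at 0 and differ between panels. Points are libraries, horizontal lines are group means and vertical lines are standard deviations (n = 3), drawn no lower than 0. Cx3cr1 was lower in the 3 NMO+Clodronate libraries than in the 3 Normal libraries, and Ccr1 was higher in all NMO and NMO+Clodronate libraries than in Normal.

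Cx3cr1 and Ccr1 were the receptors whose libraries separated from Normal, in opposite directions. Both lie on chromosome 9, and the 250 bases before their RefSeq start sites are shown because these 2 transcripts are the ones the results turn on. They are from RefSeq on GRCm38.p6, 5′ to 3′ on the minus strand, at chr9:120068297-120068546 for Cx3cr1 and chr9:123968693-123968942 for Ccr1. The GENCODE model of Cx3cr1 starts further upstream, so its window lies inside that gene model. No value here bears on whether these stretches regulate the genes.

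Cx3cr1: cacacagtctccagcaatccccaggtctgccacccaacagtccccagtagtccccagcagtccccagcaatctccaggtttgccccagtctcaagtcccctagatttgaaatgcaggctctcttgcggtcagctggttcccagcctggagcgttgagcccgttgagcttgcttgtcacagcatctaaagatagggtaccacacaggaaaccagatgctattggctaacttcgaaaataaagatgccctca

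Ccr1: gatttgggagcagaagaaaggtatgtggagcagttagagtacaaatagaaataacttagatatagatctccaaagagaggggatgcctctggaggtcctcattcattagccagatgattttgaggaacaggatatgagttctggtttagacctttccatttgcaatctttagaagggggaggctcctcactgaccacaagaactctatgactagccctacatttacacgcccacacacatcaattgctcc

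Both strands of these windows were searched for AGGAAGT (an ETS motif), TGANTCA (AP-1), TTCNNNGAA (STAT) and an NF-kB motif, and capitals would have marked a match. No match was present in either window. Of 32851 promoters of the same length, 7.69%, 6.75%, 7.02% and 3.9% held the respective motif. Among the 8 receptors, only the windows of Ccrl2, with NF-kB letters 56 bases before the start, and Fpr2, with the STAT motif 77 bases before the start, held a match. A match is a description of letters and not a binding site.

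Cx3cr1 (chr9:119901616-120069879, minus strand, in GENCODE M21 of GRCm38) was the only receptor called at an adjusted p under 0.05 in any comparison by edgeR on all 9 libraries. The DESeq2 Wald test also called Ccr1 in NMO+Clodronate against Normal. Its counts were 67389, 81146 and 74582 in the Normal libraries, 88187, 106855 and 59162 in NMO and 47273, 46644 and 62563 in NMO+Clodronate. The corresponding levels were 11833 ± 963 CPM, 11117 ± 1660 CPM and 8157 ± 1645 CPM (mean ± SD, n = 3). Every NMO+Clodronate library was below every Normal library, and the highest of them was above the lowest NMO library. Against Normal, NMO+Clodronate was at 0.689 of the level (95% interval 0.549 to 0.866), a log2 fold change of -0.54 with SE 0.16 (adjusted p = 0.0378, edgeR). That is 1 of 7 receptors called, where 9.23% of the 12292 genes tested were called. The libraries of the groups did not overlap for 2 of 7 receptors, Cx3cr1 and Ccr1, and for 28.7% of all genes. The change was under 1.5-fold. By a threshold of 1.5-fold and an unadjusted p under 0.05, the one behind the study's counts of microglial genes though not behind all of its displays, 1 of 7 receptors, Ccr1, differed here, where 20.1% of all genes did.

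The call on Cx3cr1 changed with the libraries in the fit. It was kept in 10 of 17 alternative analyses, with log2 fold changes from -0.71 to -0.43 and adjusted p values from 0.00577 to 0.157. It was lost with library totals in place of scaled sizes (adjusted p = 0.110) and without Normal replicate 1 (0.0525), Normal replicate 2 (0.129), Normal replicate 3 (0.125), NMO replicate 1 (0.0639), NMO+Clodronate replicate 1 (0.140) or NMO+Clodronate replicate 2 (0.157), all by edgeR. The difference between NMO+Clodronate and NMO was a log2 fold change of -0.45 with SE 0.16 (adjusted p = 0.198), which passed only without NMO+Clodronate replicate 3 (-0.62, adjusted p = 0.0461). NMO and Normal differed by -0.09 (95% interval -0.42 to 0.24, adjusted p = 0.954, edgeR), and the sign of that value turned when library totals were used (0.016).

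The other microglia markers differed from Cx3cr1 in the size of their changes. In both comparisons of NMO+Clodronate, all 10 had a log2 fold change below 0, as Cx3cr1 had. In NMO against Normal, 1 of 10 was above 0. None of the 10 markers was called higher in any comparison. In NMO against Normal 1 of 10 was called lower, with a median log2 fold change of -0.44, and in NMO+Clodronate against NMO 5 of 10 were called lower, with a median of -0.72, while Cx3cr1 was called in neither. In NMO+Clodronate against Normal 7 of 10 were called lower and the median log2 fold change was -1.07, beside -0.01 over all genes tested. P2ry12 (-2.79), Gpr34 (-2.90), which codes for a lysophosphatidylserine receptor, and Siglech (-2.04), a microglial lectin, were lower by more than Cx3cr1, while Tmem119 (-0.32) did not pass the test. Their part in the value of Cx3cr1 was not tested. Cx3cr1 overlaps the antisense gene Gm33858 over 78 exonic bases, and since a strand setting was not stated in the sources used here, reads of the pair there cannot be told apart.

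Fractalkine itself, Cx3cl1, had few counts in these sorted cells. It had 0, 22 and 21 counts in Normal, 0, 6 and 0 in NMO and 11, 44 and 0 in NMO+Clodronate. No group was free of a library at 0, and none of the 3 comparisons passed the test.

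Ccr1 (chr9:123962124-123968692, minus strand), a receptor for Ccl3, Ccl5, Ccl6 and Ccl9, was about 4-fold higher in both injected groups but did not pass the adjusted threshold. Its counts were 16, 15 and 12 in Normal, 67, 107 and 57 in NMO and 73, 96 and 31 in NMO+Clodronate. The 6 libraries of injected mice were all above the 3 Normal libraries, and in CPM NMO+Clodronate spanned the range of NMO. Levels were 2.28 ± 0.266 CPM in Normal, 10.1 ± 2.36 CPM in NMO and 10.4 ± 5.30 CPM in NMO+Clodronate (mean ± SD, n = 3).

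NMO was 4.42 times Normal (95% interval 1.65 to 11.8), with a log2 fold change of 2.14, SE 0.67 and an adjusted p of 0.231 by edgeR. No receptor was called in NMO against Normal, where 0.496% of the 12292 genes were called. At an unadjusted p under 0.05 there were 1169 genes in edgeR, which is 9.51%, and Ccr1 was the only receptor among them. Under the 1.5-fold threshold Ccr1 was again the 1 receptor of 7 that differed, where 7.96% of all genes did. Libraries that did not overlap were found for Ccr1, 1 of 7 receptors, and for 17.4% of all genes.

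In NMO+Clodronate against Normal, Ccr1 had a log2 fold change of 2.18 with SE 0.68 and an adjusted p of 0.0520 by edgeR, just above the threshold. It passed in 4 of 17 alternatives, by the DESeq2 Wald test (2.19, adjusted p = 0.0137), which called 12.8% of the genes it gave an adjusted p, with library totals (2.26, adjusted p = 0.0461, edgeR), without NMO replicate 3 (adjusted p = 0.0490, edgeR) and without NMO+Clodronate replicate 3 (2.52, adjusted p = 0.0230, edgeR). All alternatives gave a higher level, from 1.77 to 2.52 on the log2 scale. Between NMO+Clodronate and NMO the value was 0.04 with a 95% interval of -1.30 to 1.37, which leaves room for a difference of more than 2-fold in either direction.

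**Figure D2:**
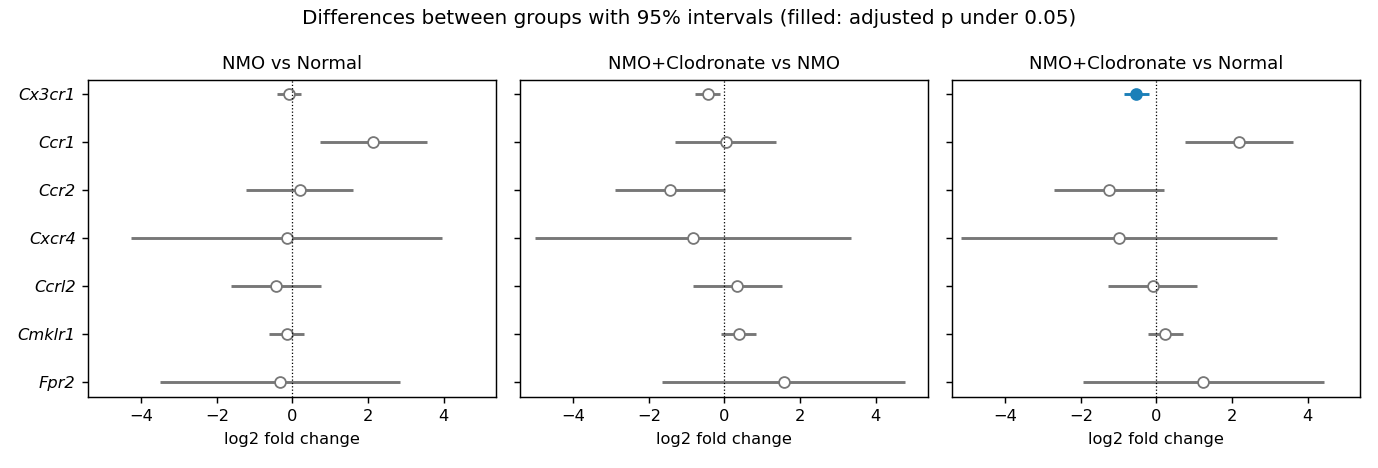
Log2 fold changes of the 7 tested receptors in the 3 comparisons, with 95% intervals from the edgeR fit. The filled point is Cx3cr1 in NMO+Clodronate against Normal, the only value with an adjusted p under 0.05. The intervals of Ccr1 lie above 0 in both comparisons with Normal, and those of Cxcr4 and Fpr2 are the widest.

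No ligand of Ccr1 was called higher in any comparison by edgeR, and the ligands were not tested against the receptor. Ccl6 had 1134, 944 and 918 counts in Normal, 969, 849 and 653 in NMO and 483, 568 and 551 in NMO+Clodronate. It was lower in every NMO+Clodronate library than in any other library, and against Normal the log2 fold change was -0.93 (adjusted p = 0.00728, edgeR). Ccl9 had 564, 371 and 295 counts in Normal, 293, 444 and 266 in NMO and 208, 144 and 92 in NMO+Clodronate, with -1.51 against Normal (adjusted p = 0.00638, edgeR), a call lost only without Normal replicate 1 (adjusted p = 0.0515, edgeR). Ccl3 ranged from 781 to 2529 counts and Ccl5 from 10 to 98 counts over the 9 libraries. Neither passed the test in any comparison, and their groups overlapped in all of them.

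Ccr2 (chr9:124101950-124113557, plus strand), the monocyte receptor for Ccl2, Ccl7 and Ccl12, was variable within each group. Its counts were 110, 24 and 113 in Normal, 156, 56 and 122 in NMO and 59, 11 and 40 in NMO+Clodronate. Replicate 2 was the lowest library of every group, and the groups overlapped in all 3 comparisons. Levels were 13.4 ± 8.50 CPM, 15.3 ± 7.43 CPM and 5.60 ± 3.48 CPM (mean ± SD, n = 3). NMO+Clodronate was at 0.368 of NMO (95% interval 0.134 to 1.01), a log2 fold change of -1.44 with an adjusted p of 0.410 by edgeR. No receptor was called in NMO+Clodronate against NMO, where 1.59% of the 12292 genes were called. In edgeR 1523 genes (12.4%) had an unadjusted p under 0.05 there, Cx3cr1 among them as the only receptor. No receptor met the 1.5-fold threshold with an unadjusted p under 0.05, which 10.7% of all genes met, and none had libraries without overlap, which 17.1% of all genes had. DESeq2 also called 0 receptors in NMO against Normal, where it called 1.81% of the genes it gave an adjusted p, and in NMO+Clodronate against NMO, where it called 3.86%. Against Normal, Ccr2 in NMO+Clodronate had -1.25 (adjusted p = 0.318) and in NMO 0.19 (adjusted p = 0.983), both by edgeR.

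The gene nearest to Ccr2 in its pattern over the 9 libraries was H2-Aa, a chain of the class II molecule that presents antigen. Likeness was measured as the root mean square difference of centred log2 CPM, which was 0.392 for H2-Aa and 0.499 for Sulf2, an extracellular sulfatase, among 8840 genes whose mean count reached 50. H2-Aa had 314, 116 and 243 counts in Normal, 416, 160 and 366 in NMO and 143, 37 and 61 in NMO+Clodronate. Like Ccr2, H2-Aa was lowest in replicate 2 of every group. Since it was picked for its likeness to Ccr2 over these libraries, this is no separate observation. The log2 fold change of H2-Aa in NMO+Clodronate against NMO was -1.82 (adjusted p = 0.0896, edgeR). Markers of other cells are given here as a description. The summed neutrophil markers were lowest in replicate 2 of every group, at 98.3 CPM in Normal, 150 CPM in NMO and 295 CPM in NMO+Clodronate. In NMO+Clodronate against NMO, 8 of 9 neutrophil markers tested had a log2 fold change above 0, with a median of 0.81, and none passed the test. The summed monocyte markers were lowest in replicate 3 of every group, at 33.0 CPM in Normal, 56.4 CPM in NMO and 73.3 CPM in NMO+Clodronate. Of the 10 monocyte markers, 5 had a log2 fold change above 0 and 5 below in NMO+Clodronate against NMO, and none passed the test. S100a4, a calcium-binding protein (25.6 and 8.73 CPM in NMO and NMO+Clodronate), Plac8 (9.85 and 4.17 CPM), Itga4, an integrin chain (7.30 and 3.41 CPM), and Vcan, for versican (5.02 and 2.02 CPM), had a lower mean in NMO+Clodronate. Fn1 (6.97 and 24.2 CPM) and Chil3, a chitinase-like protein (8.32 and 24.9 CPM), had a higher mean there. Apart from Fn1, the monocyte markers given here were named after their values were seen. Fn1, for fibronectin, was the only monocyte marker called, higher in NMO+Clodronate against Normal (2.45, adjusted p = 0.0218, edgeR), and the call was lost without Normal replicate 1 (0.0545), Normal replicate 3 (0.0833), NMO+Clodronate replicate 1 (0.0696) or NMO+Clodronate replicate 2 (0.0811). The part of other cells in the values of Ccr2 was not tested.

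**Figure D3:**
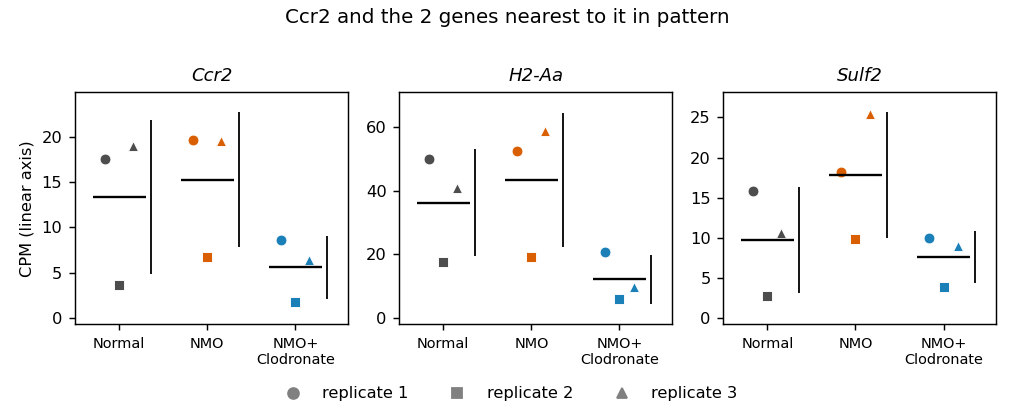
Ccr2 and the 2 genes with the most similar pattern, H2-Aa and Sulf2, in CPM on linear axes from 0. Points are libraries, horizontal lines means and vertical lines standard deviations (n = 3). The square, replicate 2, is the lowest point of each group for all 3 genes. H2-Aa and Sulf2 were picked for their likeness to Ccr2 over these libraries, so a shared low point is no separate observation.

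Counts of Ccr2 per 1000 counts of Cx3cr1, a ratio that does not depend on library scaling, were 1.63, 0.296 and 1.52 in Normal, 1.77, 0.524 and 2.06 in NMO and 1.25, 0.236 and 0.639 in NMO+Clodronate. Replicate 2 was again the lowest of each group, and the groups overlapped. The mean log2 ratio differed by 0.46 between NMO and Normal (exact permutation p = 0.5, two-sided), by -1.11 between NMO+Clodronate and NMO (exact permutation p = 0.3) and by -0.65 between NMO+Clodronate and Normal (exact permutation p = 0.5). With 3 libraries against 3 the smallest p possible was 0.1. The sign of the value for NMO against Normal turned without Normal replicate 2 (-0.34).

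Ccl2, Ccl7 and Ccl12, ligands of Ccr2, were each called in at least 1 comparison, while Ccl8, a related chemokine, was at 0 counts in all 9 libraries and was not tested. The ligands were not tested against the receptor. Ccl12 had 326, 132 and 270 counts in Normal, 7134, 7913 and 2458 in NMO and 3323, 1456 and 637 in NMO+Clodronate. Every library of injected mice was above every Normal library, with a log2 fold change of 4.26 for NMO (adjusted p = 0.000379) and 2.81 for NMO+Clodronate (adjusted p = 0.000990), both against Normal by edgeR and both kept in all 17 alternatives. Between NMO+Clodronate and NMO it was -1.44 (adjusted p = 0.129, edgeR), a difference that passed with the replicate number as a block.

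Ccl2 had 31, 39 and 83 counts in Normal, 495, 797 and 104 in NMO and 175, 95 and 92 in NMO+Clodronate. NMO was above Normal by 2.82 on the log2 scale (adjusted p = 0.0258, edgeR). With the replicate number as a block, that call was lost. It was also lost by limma-voom (adjusted p = 0.159) and without Normal replicate 1 (0.144), Normal replicate 2 (0.158), NMO replicate 2 (0.154) or NMO replicate 1, which fell between these values. Ccl7 had 26, 56 and 23 counts in Normal, 272, 260 and 74 in NMO and 20, 14 and 8 in NMO+Clodronate. All NMO+Clodronate libraries were below all others, with -3.56 against NMO (adjusted p = 0.00789, edgeR), a call lost by limma-voom (adjusted p = 0.0782), without NMO replicate 1 (0.0652, edgeR) and without NMO+Clodronate replicate 2 (0.0504, edgeR). Against Normal, Ccl7 had 2.23 in NMO (adjusted p = 0.119) and -1.34 in NMO+Clodronate (adjusted p = 0.196), both by edgeR.

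**Figure D4:**
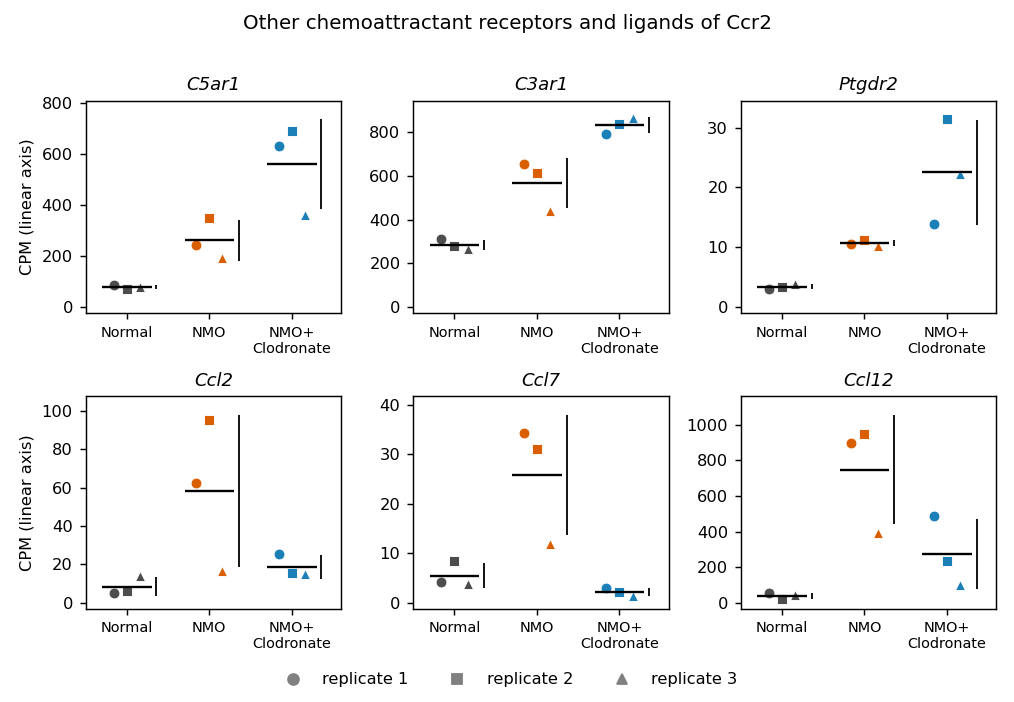
Other chemoattractant receptors (C5ar1, C3ar1 and Ptgdr2) and the ligands of Ccr2 (Ccl2, Ccl7 and Ccl12) in CPM on linear axes from 0. Points are libraries, horizontal lines means and vertical lines standard deviations (n = 3). C5ar1, C3ar1 and Ptgdr2 stand highest in NMO+Clodronate with no overlap between groups, and the 3 ligands have their highest means in NMO.

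Cmklr1 (chr5:113612354-113650426, minus strand), the signalling receptor for chemerin, was well counted and no difference passed the test. Its counts were 1589, 1590 and 1481 in Normal, 2064, 2102 and 989 in NMO and 1476, 1930 and 2158 in NMO+Clodronate. The coefficient of variation was 2.90% in Normal, 25.2% in NMO and 23.3% in NMO+Clodronate, and the Normal range fell inside both other ranges. Levels were 247 ± 7.17 CPM, 223 ± 56.3 CPM and 291 ± 67.7 CPM (mean ± SD, n = 3). The 95% intervals of the log2 fold changes were -0.61 to 0.32 for NMO against Normal, -0.08 to 0.85 for NMO+Clodronate against NMO and -0.23 to 0.70 for NMO+Clodronate against Normal, with adjusted p values of 0.946, 0.515 and 0.633 by edgeR. The intervals bound any change below 2-fold. Its nearest genes in pattern were Eif3h (0.0955), a subunit of a translation initiation factor, and Plrg1 (0.130), a splicing factor.

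Ccrl2 (chr9:111054486-111057519, minus strand), which binds chemerin and does not signal, had 76, 69 and 70 counts in Normal, 100, 65 and 31 in NMO and 109, 37 and 64 in NMO+Clodronate. As with Cmklr1, the Normal libraries lay close together and inside the range of the other groups. Levels were 11.4 ± 0.916 CPM, 8.44 ± 3.85 CPM and 10.7 ± 4.97 CPM (mean ± SD, n = 3). Log2 fold changes were -0.43 for NMO against Normal, 0.34 for NMO+Clodronate against NMO and -0.09 for NMO+Clodronate against Normal, with adjusted p values of 0.928, 0.883 and 0.962 by edgeR. The sign turned in NMO+Clodronate against NMO without NMO+Clodronate replicate 1, and in NMO+Clodronate against Normal without NMO+Clodronate replicate 2. Rarres2, the gene for chemerin, had 28, 11 and 8 counts in Normal, 62, 4 and 81 in NMO and 20, 19 and 76 in NMO+Clodronate. Its groups overlapped and no comparison passed the test.

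Cxcr4 (chr1:128588199-128592293, minus strand), the receptor for Cxcl12, was near the limit of detection. It had 28, 0 and 8 counts in Normal, 2, 3 and 29 in NMO and 0, 16 and 2 in NMO+Clodronate. A single library held most counts in each group, and the 95% interval for NMO against Normal, -4.27 to 3.97 on the log2 scale, allowed a change in either direction. Cxcl12 had 26, 10 and 70 counts in Normal, 8, 0 and 0 in NMO and 165, 0 and 28 in NMO+Clodronate. Mif, a cytokine that also binds Cxcr4, had 176, 208 and 165 counts in Normal, 314, 516 and 218 in NMO and 355, 399 and 170 in NMO+Clodronate. Neither ligand passed the test in any comparison.

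Fpr1 (chr17:17876471-17883940, minus strand) and Fpr2 (chr17:17887824-17893952, plus strand) are neighbours. Fpr1 had 5, 17 and 0 counts in Normal, 3, 0 and 0 in NMO and 13, 0 and 0 in NMO+Clodronate. It was at 0 in 5 of 9 libraries, which allows up to 3 counts in each, and no fold was computed. Fpr2 had 22, 26 and 0 counts in Normal, 9, 29 and 8 in NMO and 64, 51 and 0 in NMO+Clodronate. It was highest in 2 libraries of NMO+Clodronate and at 0 in the third, so the groups overlapped. Its log2 fold change in NMO+Clodronate against NMO was 1.57 with a 95% interval of -1.65 to 4.78 (adjusted p = 0.766, edgeR). The last 500 bases of the Fpr2 transcript share 91.2% of 431 bases with the gene Gm5966 and 81.5% of 497 bases with Fpr3, and Fpr2 and Fpr3 share 60 exonic bases on the same strand. Reads that aligned to several places were counted. For none of the 8 receptors did the last 500 bases have an alignment to another gene of at least 75 bases, the length of a read, at 95% identity or more, although a shorter stretch inside a longer alignment can be closer than its average. Weaker matches were found to at least 4496 other genes for Cx3cr1 and at least 2238 for Ccrl2, with the longest at 76.5% and 78.4% identity, and to 4 for Fpr2. How many counts of any receptor came from such matches was not tested.

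Among ligands of Fpr2, Saa3, an acute phase serum amyloid A, had 0, 0 and 8 counts in Normal, 10, 105 and 18 in NMO and 508, 655 and 96 in NMO+Clodronate. NMO+Clodronate was highest, and its lowest library was close to the highest of NMO. The log2 fold change against NMO was 3.53 (adjusted p = 0.0420, edgeR), which was lost by DESeq2 (adjusted p = 0.201), by limma-voom (0.0989), with only the 2 groups in the fit (0.0555) and without Normal replicate 2 (0.0510), NMO replicate 1 (0.165), NMO replicate 3 (0.132), NMO+Clodronate replicate 1 (0.0817) or NMO+Clodronate replicate 2 (0.254). Against Normal it was 7.18 in NMO+Clodronate (adjusted p = 0.000467, edgeR), lost by limma-voom (adjusted p = 0.0964). Anxa1, an inflammation-resolving annexin, ranged from 0 to 46 counts and Camp, a cathelicidin of neutrophil granules, from 0 to 254 counts over the 9 libraries. Neither passed the test.

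In all, 14 of 15 ligands were tested. In NMO against Normal 2 were called higher and 0 lower, with a median log2 fold change of 0.90 beside -0.01 over all genes tested. In NMO+Clodronate against NMO 1 was higher and 1 lower, with a median of -0.31 beside -0.01. In NMO+Clodronate against Normal 2 were higher and 2 lower, with a median of 0.67 beside -0.01. The called ligands were those described above.

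The other receptors for chemoattractants, which bind complement fragments, lipids and prostaglandins, included called genes in every comparison. C5ar1, the receptor for the complement fragment C5a, had 540, 466 and 474 counts in Normal, 1950, 2906 and 1198 in NMO and 4330, 4264 and 2258 in NMO+Clodronate. In CPM, though not in counts, the 3 groups did not overlap, and they stood in the order Normal, NMO, NMO+Clodronate. The log2 fold changes were 1.73 for NMO against Normal (adjusted p = 0.00372) and 2.84 for NMO+Clodronate against Normal (adjusted p = 6.06e-06), both by edgeR and kept in all 17 alternatives. NMO+Clodronate was above NMO by 1.10 (adjusted p = 0.0318, edgeR), a call lost with library totals (adjusted p = 0.0522), with only the 2 groups in the fit (0.0882) and without Normal replicate 2 (0.0510), NMO replicate 1 (0.154), NMO replicate 3 (0.125), NMO+Clodronate replicate 1 (0.0783) or NMO+Clodronate replicate 2 (0.205).

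C3ar1, the receptor for C3a, had 1947, 1850 and 1568 counts in Normal, 5188, 5114 and 2746 in NMO and 5424, 5160 and 5401 in NMO+Clodronate. Its levels in CPM did not overlap between groups and followed the same order. The log2 fold change was 1.00 for NMO against Normal (adjusted p = 0.0160, edgeR), lost without Normal replicate 1 (0.0527), Normal replicate 2 (0.112), Normal replicate 3 (0.116), NMO replicate 1 (0.104) or NMO replicate 2 (0.0619). It was 1.55 for NMO+Clodronate against Normal (adjusted p = 4.92e-05) and 0.55 for NMO+Clodronate against NMO (adjusted p = 0.161), both by edgeR. Ptgdr2, a prostaglandin D2 receptor, had 19, 22 and 23 counts in Normal, 84, 94 and 64 in NMO and 95, 194 and 139 in NMO+Clodronate. The groups did not overlap, and the value against Normal passed the test in NMO+Clodronate (2.72, adjusted p = 0.00228, edgeR) and not in NMO (1.65, adjusted p = 0.199, edgeR). Of 6 tested receptors in this group, 2, 1 and 3 were called higher in NMO against Normal, NMO+Clodronate against NMO and NMO+Clodronate against Normal, with medians of 0.58, 0.57 and 0.98 beside -0.01 in each case over all genes tested. None was called lower.

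Of 18 further chemokine receptors, 10 were tested and 0 were called in any comparison by edgeR. Their median log2 fold changes were -0.39 in NMO against Normal, -0.25 in NMO+Clodronate against NMO and -0.25 in NMO+Clodronate against Normal. Ccr9, a gut homing receptor, and Xcr1, a receptor of dendritic cells, had mean counts of 37.7 and 23.3.

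Below the receptors, 28 of 29 genes for G protein signalling were tested, and the calls were all lower in NMO+Clodronate. There were 0 calls in NMO against Normal, 4 lower in NMO+Clodronate against NMO and 5 lower in NMO+Clodronate against Normal, with medians of 0.0032, -0.12 and -0.29 beside -0.01 in each case over all genes tested. Elmo1, an adaptor that links the receptors to Rac and cell movement, had 804, 796 and 856 counts in Normal, 733, 910 and 518 in NMO and 224, 212 and 205 in NMO+Clodronate. The NMO+Clodronate libraries lay close together and below all others, with -1.51 against NMO (adjusted p = 0.00181) and -1.97 against Normal (adjusted p = 2.56e-05), both by edgeR and kept in all 17 alternatives. Rgs10, a regulator that shortens G protein signals in microglia, had -0.93 against NMO (adjusted p = 0.0457) and -1.36 against Normal (adjusted p = 0.000991), by edgeR. Pik3cg, the kinase that G protein subunits activate, had -1.01 against NMO (adjusted p = 0.0262) and -1.04 against Normal (adjusted p = 0.00624), by edgeR. Prex1, a Rac activator, had -1.17 against NMO (adjusted p = 0.0444, edgeR). The calls against NMO were kept in 5 of 17 alternatives for Rgs10, 10 for Pik3cg and 7 for Prex1. Each was lost without Normal replicate 2, Normal replicate 3, NMO replicate 1, NMO replicate 3, NMO+Clodronate replicate 2 or NMO+Clodronate replicate 3, those of Rgs10 and Prex1 also without Normal replicate 1, that of Prex1 without NMO replicate 2 and that of Rgs10 without NMO+Clodronate replicate 1, with adjusted p values up to 0.238 by edgeR.

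The spread within a group differed between the receptors. In Normal the coefficient of variation was 2.90% for Cmklr1, 8.02% for Ccrl2, 8.14% for Cx3cr1 and 11.7% for Ccr1, and it was 63.5% for Ccr2, 87.0% for Fpr2, 117% for Fpr1 and 118% for Cxcr4. The receptors at 0 in some library were the 3 with the highest values. Normal counts were 12 to 16 for Ccr1, 69 to 76 for Ccrl2 and 1481 to 1590 for Cmklr1. Counting error alone can give spreads as large as theirs, so these low values do not show that the receptors were steady. For Ccr1 and Ccrl2 the low Normal spread went with higher spreads in NMO+Clodronate, of 51.0% and 46.4%. The nearest genes in pattern were Basp1 (0.0947), a membrane protein of growth cones, and Cdc42 (0.104), a GTPase of cell movement, for Cx3cr1. They were Pola1 (0.295), the catalytic subunit of a DNA polymerase, and Dph1 (0.309), an enzyme of diphthamide synthesis, for Ccr1, and Fut8 (0.185), a fucosyltransferase, and Capn7 (0.202), a protease, for Ccrl2. These are root mean square differences of centred log2 CPM over 9 libraries and are a description. The genes they name also share the libraries and their depth with the receptors.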

How the data were processed

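RNA of sorted mouse microglia was measured in 9 libraries (Normal, NMO and NMO+Clodronate, 3 each). The authors made QuantSeq 3′ libraries, aligned the reads with Bowtie2 and counted unique and multiple alignments with bedtools; the deposited values are these raw read counts per gene, and the submitters' processing notes give the build mm10. The annotation and strand setting were not given in the sources used here, and multiply aligned reads may be counted at several genes. Entries that shared a symbol were summed (79 entries for 35 symbols).

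Counts were fitted in R 4.3.3 with edgeR 4.0.16 (quasi-likelihood F-tests, two-sided, TMM scaling, filterByExpr with minimum count 10 and total 15) on all 9 libraries, with p values adjusted by Benjamini and Hochberg over 12292 genes and calls at an adjusted p under 0.05. The fit was also run on simulated data as a check of the code, and no result given here rests on it. Alternatives were DESeq2 1.42.0 size factors and Wald test, library totals, removal of Rn45s, no filter, limma-voom (limma 3.58.1), only the compared groups, a replicate block and each library left out. Count ratios were compared with exact permutation tests. Coordinates and sequence overlaps came from GENCODE M21 and blastn 2.17.0, promoters and motifs from RefSeq.

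The receptors and gene lists were chosen with earlier results of these data known. Named genes were all 8 receptors, their ligands with a mean count of at least 10, per list up to 3 called genes in each direction with the largest change or, with none called, the 3 with the highest mean count, and the 2 nearest genes in pattern of receptors with a mean count of at least 50. Some genes under this rule are not reported here. Intervals and the allowance of 3 counts for a count of 0 cover counting error or the spread between these pools only. Library pairs of a group differed by more than counting error (chi-square per degree of freedom 22.8 to 54.8). Replicate numbers were not used as pairs.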

Additional observations from a re-analysis of the deposited data

How the results depend on the processing

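Over 17 alternatives and 7 receptors in 3 comparisons, 322 values kept their sign and their side of the threshold, 5 newly passed it, 7 lost it and 23 changed sign, none of them a called value. The count of receptors called in NMO+Clodronate against Normal was 2 by DESeq2, which called 1576 of the 12277 genes it gave an adjusted p (12.8%), and 0 to 2 with a library left out, and in NMO+Clodronate against NMO 0 to 1 with a library left out. The replicate number as a block changed no receptor's call (Cx3cr1 in NMO+Clodronate against Normal -0.54, adjusted p = 0.0373, edgeR; Ccr1 2.07, adjusted p = 0.0913, edgeR), and the calls over all genes were 53, 197 and 1124 with the block and 61, 196 and 1134 without it. Under the block, Ccl2 in NMO against Normal (adjusted p = 0.0691, edgeR) and Rgs10 in NMO+Clodronate against NMO (0.0576) did not pass, while Ccl12 in NMO+Clodronate against NMO did (0.0334). Same-numbered libraries of different groups did not deviate together, with correlations of -0.0164 to 0.0302 across genes after removal of group means, so the numbers are no evidence of pairs.

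The signs that changed were of values near 0 or of low counts. With library totals, which moved the median of all genes in NMO against Normal from -0.01 to 0.10, Cx3cr1 in NMO against Normal was 0.016 and Ccr1 in NMO+Clodronate against NMO was -0.010. With limma-voom Cxcr4 was 0.032 and Fpr2 0.72 in NMO against Normal, and Ccr1 -0.10 in NMO+Clodronate against NMO. With the replicate block Fpr2 was 1.11 and Ccr1 -0.051 in these comparisons. With a library left out, the values in NMO against Normal ran from -0.21 to 0.013 for Cx3cr1, -0.26 to 0.54 for Ccr2, -2.59 to 1.36 for Cxcr4, -0.27 to 0.048 for Cmklr1 and -1.03 to 0.15 for Fpr2. In NMO+Clodronate against NMO they ran from -0.37 to 0.37 for Ccr1, -3.32 to 1.61 for Cxcr4 and -0.058 to 0.75 for Ccrl2, and in NMO+Clodronate against Normal -3.47 to 0.52 for Cxcr4 and -0.49 to 0.20 for Ccrl2. The Ccr2 to Cx3cr1 ratio in NMO against Normal ran from -0.34 to 1.08 on the log2 scale. The cause of these changes was not tested.

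The calls over all genes in NMO against Normal were 96 with library totals, 223 with no filter, 222 by DESeq2 and 18 to 71 with a library left out. In NMO+Clodronate against NMO they were 496 with no filter, 465 by DESeq2, 84 with only the 2 groups in the fit and 31 to 225 with a library left out, and in NMO+Clodronate against Normal 635 to 1270 with a library left out. Differences in Cxcr4 and Fpr2 were not detectable at these counts, and Fpr1 was too low to be tested.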
